A study of Mus musculus with 3 samples.

Results

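The cells described here were 113 single cells from the mouse sciatic nerve, taken 5 days after nerve crush, that carried much Retnla RNA and no RNA of the Cd209 lectins of the rule given here. They were chosen from the deposited count table of that library by measured values. A cell needed 200 or more genes with a UMI (unique molecular identifier, a tag that lets each captured RNA molecule be counted singly) and no more than 10% of its UMIs from mitochondrial genes. It also had to have 5 or more UMIs of Retnla, 0 UMIs summed over Cd209b, Cd209d, Cd209f, Cd209g and Fcna, and at most 1 UMI each of Cx3cr1 and Gpnmb. These 113 were 5.49% of the 2059 kept cells of that library (exact Clopper-Pearson 95% interval, 4.54% to 6.56%). They are called lectin-negative Retnla-high cells below.

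The series profiled sciatic nerve macrophages of the inbred mouse strain C57BL/6 by droplet single-cell RNA sequencing (10x Genomics chemistry, version 1). There was 1 library from nerve at steady state, 1 from nerve 1 day after crush and 1 from nerve 5 days after crush, with 728, 2793 and 2059 kept cells. Nerve crush severs the axons and leaves the outer sheath in place. The sources used here do not give the sorting of the cells or the number and age of the animals.

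Retnla encodes RELM-alpha (also called FIZZ1), a small secreted protein that macrophages make when interleukin-4 or interleukin-13 signals through the transcription factor STAT6. In peripheral nerve, resident macrophages are commonly divided into those of the epineurium, the outer sheath, and those of the endoneurium, which lie among the axons. Retnla, the Cd209 family of C-type lectins, the ficolin gene Fcna, Lyve1 and Folr2 are associated with the macrophages of the sheath, and Cx3cr1 with those among the axons. After injury, monocytes that carry Ccr2, the receptor for CCL2, enter the nerve, and macrophages that clear myelin take up large amounts of lipid and raise lysosomal genes. Gpnmb is a marker of such lipid-loaded cells.

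Each time point was 1 library, so no test between conditions or between sets of cells was possible, and no p-value is given. UMIs were summed over the cells of a set and are given as CPM, the UMIs of a gene per 1000000 UMIs of the set. All intervals are 95% and cover counting error only. The lectin-negative Retnla-high cells held 274736 UMIs, with a median of 2017 UMIs and 727 genes per cell. The 1384 day 5 cells with no Retnla UMI (Retnla-zero cells) had a median of 2271.5 UMIs and 795 genes. In the steady-state library, 209 of 728 kept cells had 5 or more Retnla UMIs, with a median of 2284 UMIs and 737 genes. Some barcodes occurred in 2 libraries (2 in steady state and day 1, 3 in steady state and day 5, 11 in day 1 and day 5), but none of the 113 did. A doublet caller marked 8 of the day 5 cells and none of the 113, too few calls to rely on, so doublets remain possible.

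The 113 cells had between 5 and 229 Retnla UMIs, with a median of 27. The day 5 library held 195 cells with 5 or more Retnla UMIs in all. Of these, 127 had no lectin or Fcna UMI, and 14 of the 127 were left out for more than 1 UMI of Cx3cr1 (10 cells) or Gpnmb (4 cells). The other 68 carried lectin or Fcna UMIs, at a median of 4.5 per cell, and are called lectin-positive Retnla-high cells. Their Retnla count was similar, with a median of 33.5. A Retnla-high cell without any lectin UMI was common at day 5, at 65.1% of Retnla-high cells (58.0% to 71.8%), against 11.5% in steady state (7.50% to 16.6%). After each cell was thinned to 1000 UMIs, the shares were 70.8% of 161 day 5 cells (63.1% to 77.7%) and 16.5% of 176 steady-state cells (11.3% to 22.8%), so the gap was there at matched depth. In the other libraries, 23 steady-state cells met the whole rule, and so did 5 of the 27 day 1 cells with 5 or more Retnla UMIs. A few Retnla UMIs in a cell can be free RNA: 58.9% of steady-state cells, 3.04% of day 1 cells and 32.8% of day 5 cells had at least 1. The same holds for lectin UMIs, of which the 1384 day 5 cells without Retnla held 213, Fcna included. Free lectin RNA may differ between libraries, which thinning does not address. A cell with no lectin UMI can also hold lectin RNA that was not captured.

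**Figure D1:**
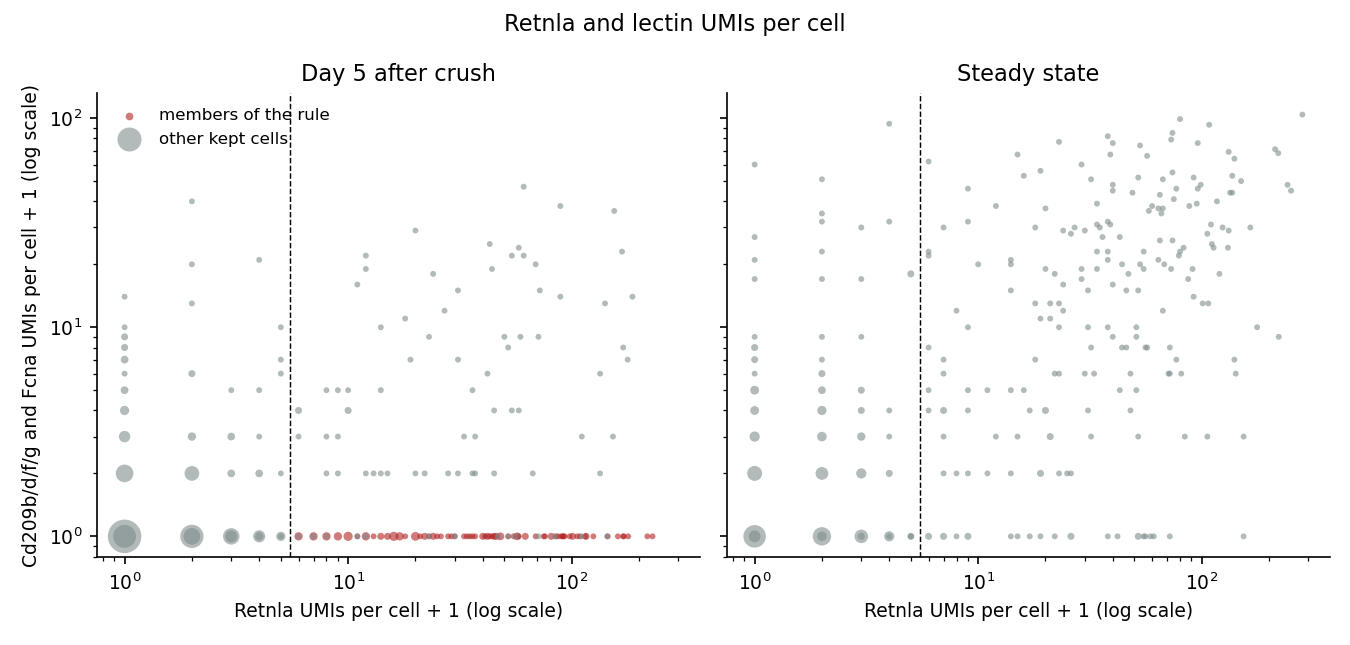
Retnla UMIs per cell plus 1 (x axis, log scale) against summed Cd209b, Cd209d, Cd209f, Cd209g and Fcna UMIs plus 1 (y axis, log scale) in day 5 cells (left) and steady-state cells (right); circle size grows with the number of cells at a point, and the dashed line marks the threshold of 5 Retnla UMIs. The 113 cells of the rule (red) lie along the bottom edge between 5 and 229 Retnla UMIs, whereas most steady-state cells right of the line lie well above that edge, at a median of 14 lectin and Fcna UMIs.

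The threshold fell in a sparsely filled range. Just outside it, 6 cells had 4 Retnla UMIs and 18 had 3, among day 5 cells that passed the other conditions. Just inside it, 4 cells had 5 UMIs and 4 had 6. The median total was 1424.5 UMIs in the cells with 4 Retnla UMIs and 902.5 UMIs in those with 5.

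Checked against its label, the set was macrophage-like but was not marked by Ccl8. The 8 macrophage markers examined had at least 2 UMIs in 109 of the 113 cells and a summed level of 11662 CPM, against 13510 CPM in the Retnla-zero cells. Most of the sum came from C1qa (1162 UMIs) and C1qb (1616 UMIs) of 3204 UMIs, whereas Csf1r had 121 UMIs in 66 cells, Adgre1 30 in 22 cells and Mertk 3 in 3 cells. Adgre1 was at 109 CPM, against 248 CPM in Retnla-zero cells. Markers of T cells (5 in the table) and mast cells (6) were at 0 in the 113 cells, and fibroblast markers summed to 18.2 CPM, against 46.7 CPM in Retnla-zero cells. Schwann cell markers summed to 87.4 against 68.3 CPM and endothelial markers to 10.9 against 10.8 CPM. Of 10 dendritic cell markers, Flt3, Zbtb46, Clec9a, Cd209a, Itgae, Ccl22 and Ccl17 were at 0. The sum of the 10 was 120.1 CPM, against 180.2 CPM in the Retnla-zero cells, and 11 of the 113 cells had at least 2 of their UMIs, against 103 of the 1384. A cluster of 57 day 5 cells led by Ccl17, Ccl5 and Cd209a, with Ccr7 also among its leading genes, held 9.73% of the 113 cells, against 2.77% of all day 5 cells. The 6 monocyte markers summed to 1187 CPM, against 962 CPM, with Vcan at 0 in the lectin-negative cells.

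Ccl8 encodes a monocyte-attracting chemokine and was named together with Retnla as a marker of these cells. It was at 641 CPM (549 to 743) in the lectin-negative Retnla-high cells, 1034 CPM in the lectin-positive Retnla-high cells, 298 CPM in the steady-state Retnla-high cells and 767 CPM (738 to 796) in the Retnla-zero cells. It was thus no higher in the lectin-negative cells than in the day 5 cells without Retnla (log2 ratio -0.26, interval -0.49 to -0.04). A Ccl8 UMI was seen in 31 of the 113 cells and in 450 of the 1384 Retnla-zero cells, and 1 cell held 23.9% of the Ccl8 UMIs of the 113. Against steady-state Retnla-high cells the Ccl8 log2 ratio was 1.10 (0.78 to 1.43). The set is therefore called by its rule and not by Ccl8.

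Compared with Retnla-zero cells of the same nerve, the lectin-negative Retnla-high cells had more RNA of Crip1, small S100 proteins, Batf3, Mgl2 and Tppp3. They had less RNA of genes of lipid and lysosome handling. Crip1, S100a4, Mgl2 and Tppp3 were not 2-fold apart from the lectin-positive Retnla-high cells, as given further on. Among the 1442 genes that reached 100 CPM in 1 set or both, 57 (3.95%) lay 2-fold or more above the Retnla-zero cells and 61 (4.23%) 2-fold or more below them, with a median log2 ratio of 0.03 over all genes tested. The 8 genes of the rule are not among these. Since Retnla chose both sets, these counts and ratios describe the 2 sets and support nothing further. Numbers in parentheses after a pair of levels are log2 ratios of CPM, with their interval where given.

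Crip1, which encodes a small LIM-domain protein, was among the 12 genes furthest above the Retnla-zero cells and was found in nearly every cell. It was at 9456 CPM, against 2446 CPM in Retnla-zero cells (log2 ratio 1.95, 1.89 to 2.01), and was seen in 112 of the 113 cells. At 1000 UMIs per cell, Crip1 was detected in 96.6% of the lectin-negative cells (90.5% to 99.3%), against 70.3% of Retnla-zero cells (67.6% to 72.9%), with 99.1% and 83.2% before thinning. Thinning kept 89 of the 113 lectin-negative, 1165 of the 1384 Retnla-zero and 176 of the 209 steady-state Retnla-high cells and left out the shallower ones. The calcium-binding genes S100a4, at 789.8 against 285 CPM (1.47), and S100a6, at 1984 against 784 CPM (1.34), were higher too. So was S100a10, which encodes the partner of annexin A2, at 1634 against 493 CPM (1.73); S100a10 is named after its value was seen.

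Batf3, a transcription factor of the AP-1 family known for its need in one class of dendritic cells, was at 411 CPM, against 81.4 CPM in Retnla-zero cells (2.34, 2.01 to 2.66). It was detected in 25.8% of thinned lectin-negative cells (17.1% to 36.2%) and 6.44% of thinned Retnla-zero cells (5.1% to 8.0%), with 41.6% and 13.2% before thinning. No single cell carried the Batf3 difference, as the richest held 9.73% of its UMIs. Without the cells that carried at least 2 UMIs of another cell type's markers, 21 of the 113 and 225 of the 1384, the Batf3 log2 ratio was 2.03. Tppp3, which encodes a tubulin-binding protein, was at 546 against 149.7 CPM (1.87, 1.59 to 2.13) and was seen in 49 of the 113 cells. The C-type lectin gene Clec4b1 was at 237 against 66.9 CPM (1.82). Lyz1, a lysozyme gene, was at 469.5 against 100.5 CPM (2.22), in 20 of the 113 cells; its near-identical neighbour Lyz2 leaves the split of reads between them uncertain.

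Several of the largest ratios rested on 1 cell. Mgl2, the galactose-binding lectin CD301b, was at 619 against 91.4 CPM (2.76, 2.48 to 3.03), but 1 cell held 33.5% of its UMIs, and the log2 ratio was 2.25 with each set's richest cell left out. For Tgs1, an RNA cap methyltransferase gene, 1 cell held 56.9% of the UMIs and the log2 ratio of 2.71 became 1.55. In the same way Ltb4r1, the leukotriene B4 receptor gene, moved to 1.32 from 2.26, Tmpo to 0.79 from 1.77 and Phf20l1 to 0.47 from 2.23. Unc119, with 2.51 for all cells, stayed more than 2-fold higher. Crip1, Batf3, Tppp3 and Lyz1 kept ratios of 1.89, 2.24, 1.66 and 1.99.

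**Figure D2:**
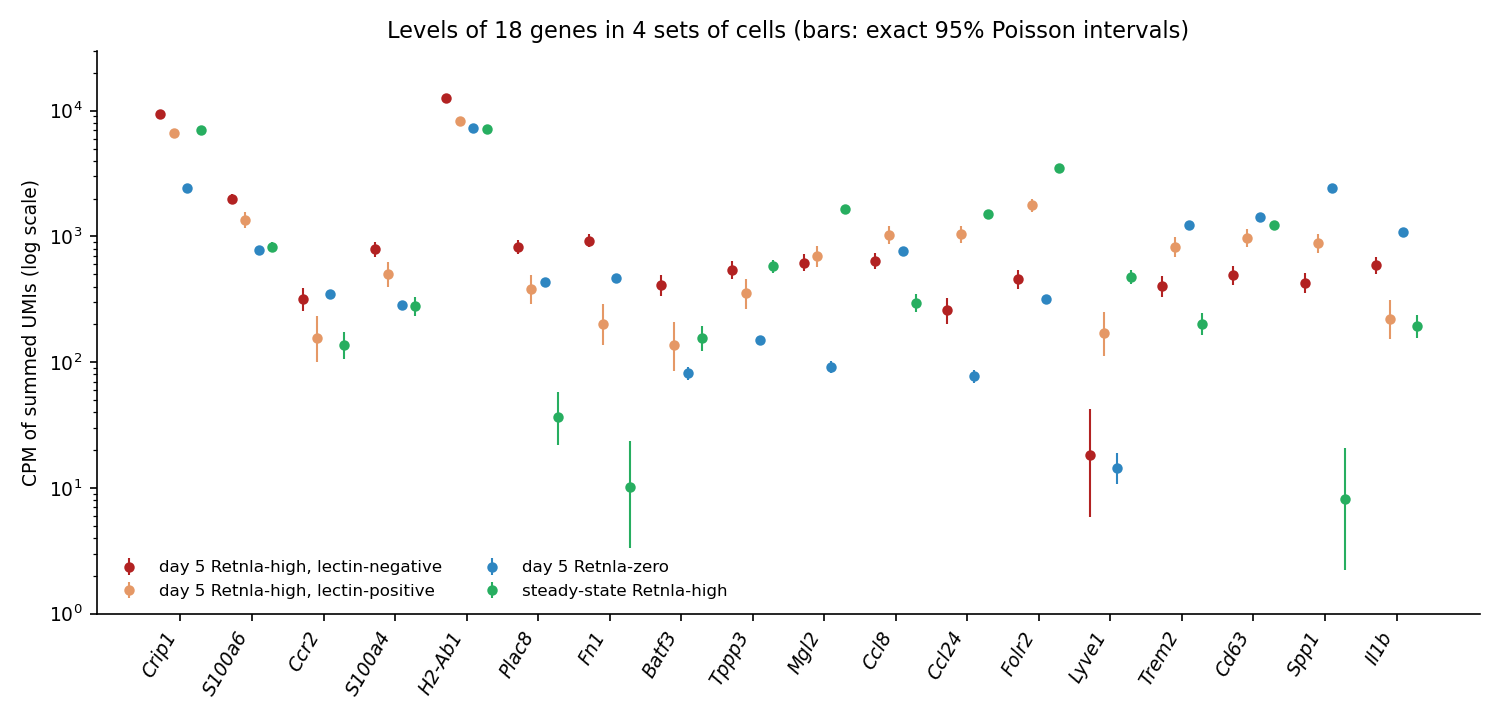
Level of 18 genes (y axis, CPM of summed UMIs, log scale) in day 5 lectin-negative Retnla-high, day 5 lectin-positive Retnla-high, day 5 Retnla-zero and steady-state Retnla-high cells, left to right within each gene, with exact 95% Poisson intervals. Crip1 and Tppp3 were high in all 3 Retnla-high sets, whereas Folr2 and Lyve1 were at 459 and 18.2 CPM in the lectin-negative cells, against 3524 and 479.9 CPM in steady-state Retnla-high cells.

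Of the genes linked to lipid handling and the lysosome, 8 of 20 tested were at least 2-fold lower in the lectin-negative Retnla-high cells than in Retnla-zero cells and 1 was higher, with a median log2 ratio of -0.79. Trem2, a lipid-sensing receptor, was at 404 CPM, against 1226 CPM in Retnla-zero cells (-1.60, -1.89 to -1.33). After thinning, Trem2 was seen in 31.5% of the lectin-negative cells (22.0% to 42.2%), against 60.8% of Retnla-zero cells (57.9% to 63.6%), with 49.6% and 75.6% before. Cd63, a tetraspanin of late endosomes, was at 491 against 1427 CPM (-1.54), and Apoe, the lipid carrier, at 24085 against 56716 CPM (-1.24). The protease genes Lgmn, Ctsd and Ctsl had log2 ratios of -1.29, -1.19 and -1.06, and the fatty acid-binding protein gene Fabp5 one of -1.41. Lpl, lipoprotein lipase, was the exception, at 222 against 85.4 CPM (1.38). Gpnmb was part of the rule; with Retnla-zero cells held to the same conditions on Gpnmb, Cx3cr1 and the lectins, Trem2 had a log2 ratio of -1.48, and Ctsd, Ctsl, Fabp5 and Cd9 were no longer 2-fold apart.

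Wound repair and matrix genes were 2-fold lower in 4 of 9 cases and higher in none, with a median of -0.89. Spp1, osteopontin, was at 426 CPM, against 2439 CPM in Retnla-zero cells (-2.52, -2.79 to -2.25), and its ratio was -0.91 with a threshold of 3 Retnla UMIs. Arg1, the arginase that mouse macrophages make in response to interleukin-4, was at 32.8 against 223 CPM (-2.77) and was seen in 7 of the 113 cells. Among genes linked to alternative activation, 2 of 7 were thus higher, Mgl2 and the eotaxin gene Ccl24 (258 against 77.1 CPM, 1.74), and 1 lower, Arg1. Fn1, fibronectin, was at 928 against 465 CPM (1.00), just under 2-fold. Hmox1 and Thbs1 had log2 ratios of -1.18 and -1.03.

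Class II antigen presentation genes were moderately higher, and none of the 6 tested was 2-fold apart (median 0.74). H2-Ab1 was at 12594 CPM, against 7323 CPM in Retnla-zero cells (0.78), H2-DMa at 1219 against 678 CPM (0.85), and Cd74, the invariant chain, at 18731 against 12889 CPM (0.54). Monocyte and granule genes were split, with 3 of 12 higher (S100a4, S100a6 and Ifitm6) and 5 lower (Thbs1, Hp, Ly6a, Ly6c2 and Ms4a4c). Ly6c2, which marks freshly arrived monocytes, was at 40.0 against 130.1 CPM (-1.70), and Hp, haptoglobin, at 10.9 against 102 CPM (-3.23), with 3 UMIs in the 113 cells. Ccr2 was at 317 against 347 CPM (-0.13, -0.46 to 0.18) and Plac8 at 826 against 432 CPM (0.94).

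Among CC chemokines, 1 of 10 was higher (Ccl24) and 3 were lower. Ccl5 had 1 UMI in the 113 cells, or 3.64 CPM, against 134 CPM in Retnla-zero cells (-5.21, -10.51 to -2.72), where it was found in 43 of 1384 cells. Ccl3 and Ccl12 both had log2 ratios of -1.15. Of the chemokine and cytokine receptors, Ccr1 was at 47.3 against 139.5 CPM (-1.56) and Il10rb at 109 against 222 CPM (-1.02), with 2 of 5 lower and none higher. Interferon response (6 genes tested), immediate early and heat shock (17), glycolysis (9) and cell cycle genes (3) had none 2-fold apart, and iron handling genes had 2 of 8 lower, Hmox1 and Trf. Complement genes had 1 of 8 higher, Cfb at 138 against 66.3 CPM (1.06), and inflammatory cytokines 1 of 9, Cxcl1. Endoneurial genes outside the rule had 2 of 5 lower, Cd9 and Ccl12. Epineurial and perivascular genes outside the rule had 3 of 17 higher (Ccl24, Mgl2 and Cfb) and 2 lower (Clec4n and Ctsd), with a median of -0.03. Lower genes outside the lists included Lpcat2, a phospholipid acyltransferase gene (-3.22), the integrin gene Itgb5 (-2.26) and Gatm, the first enzyme of creatine synthesis (-2.06). The calls of Clec4n, Cd9, Ccl3, Ccl12, Thbs1, Ly6a, Ms4a4c, Hmox1, Trf, Il10rb, Cfb and Cxcl1 were each lost under at least 1 other setting.

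**Figure D3:**
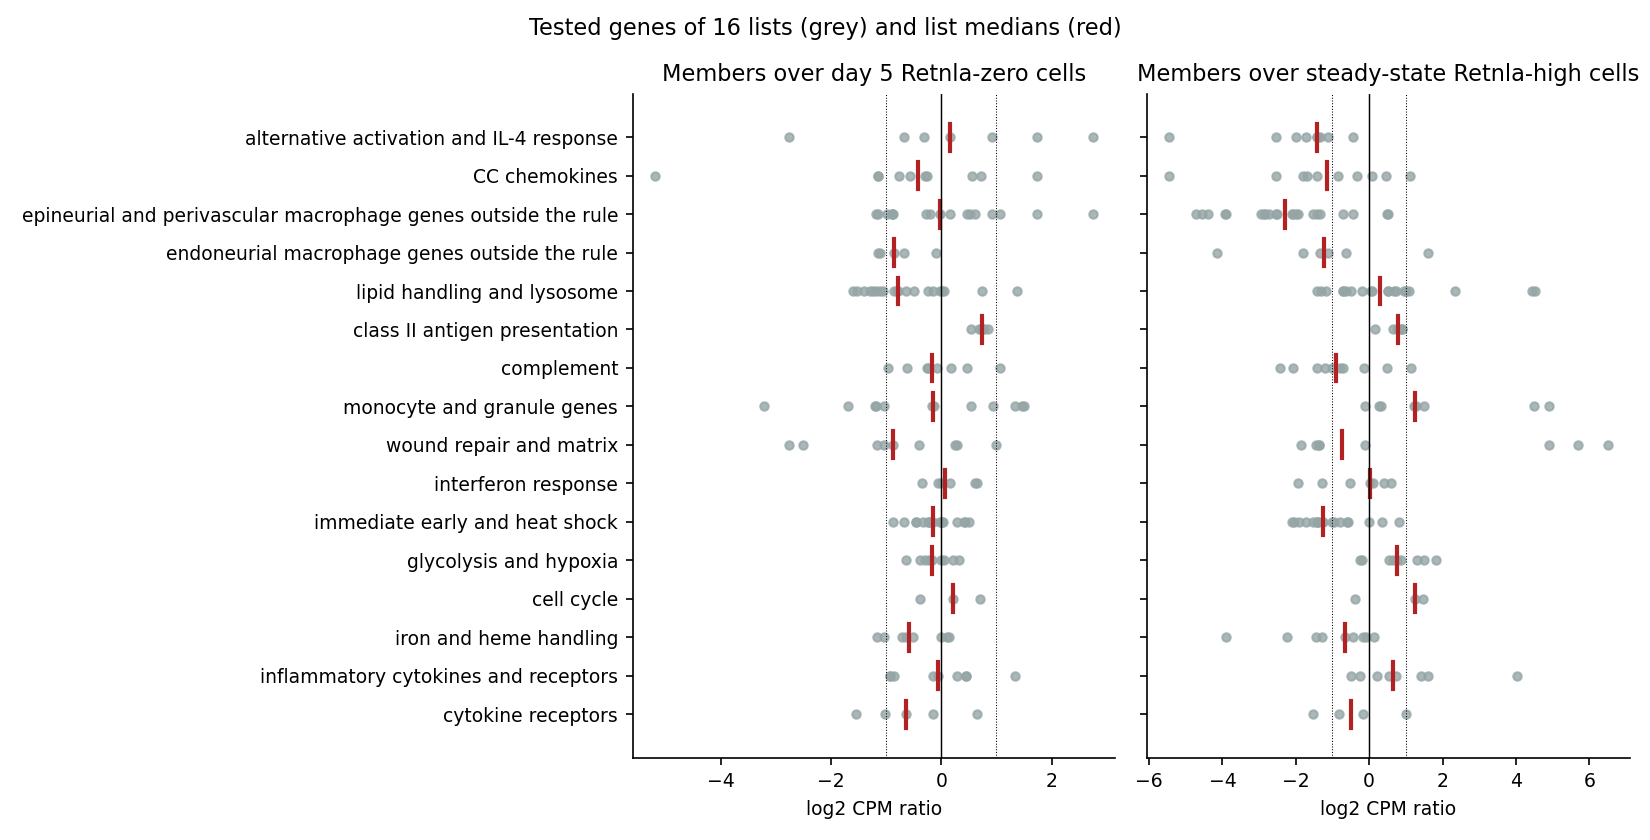
Log2 CPM ratio (x axis) of each tested gene (grey point) of 16 gene lists (rows), with the list median (red bar), for the lectin-negative Retnla-high cells over day 5 Retnla-zero cells (left) and over steady-state Retnla-high cells (right); dotted lines mark 2-fold. Lipid and lysosome genes had a median of -0.79 on the left, and epineurial and perivascular genes a median of -0.03 on the left and -2.30 on the right.

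Levels differed over bins of Retnla, and for Crip1 part of the rise was seen below the threshold of the rule, in few cells. In day 5 cells that passed its other conditions, Crip1 was at 2604 CPM in 1044 cells with 0 Retnla UMIs and 2373 CPM in 328 cells with 1 to 4. It was at 9540.3 CPM in 22 cells with 5 to 9 UMIs, 6641 CPM in 26 cells with 10 to 19 and 10486 CPM in 65 cells with 20 or more. Batf3 was at 86.7, 104, 312, 324 and 464 CPM over the same bins and Trem2 at 1129, 1093, 454, 447 and 378 CPM. Most cells of the bin from 1 to 4 had 1 Retnla UMI (243 of 328), with Crip1 at 2185 CPM. Crip1 was at 2262 CPM in the 61 cells with 2 Retnla UMIs, 4939.6 CPM (4343 to 5596) in the 18 with 3 and 5211 CPM (3915 to 6799) in the 6 with 4. Just inside the rule it was at 6239 CPM (4320.4 to 8718) in the 4 cells with 5 and 4716 CPM (3052 to 6962) in the 4 with 6. Further inside, it was at 15054 CPM (11568 to 19260) in the 4 cells with 7, 8390 CPM in the 4 with 8 and 11727 CPM in the 6 with 9. Among the 18 cells with 3 Retnla UMIs, 1 held 79 of the 247 Crip1 UMIs, and among the 6 with 9, 1 held 89 of 154. The intervals at 4, 5 and 6 Retnla UMIs overlapped, but so few cells cannot show whether Crip1 had a step at the threshold. For Batf3 and Trem2 the cells next to the threshold were too few to place a change, with 1 and 4 UMIs in the cells with 4 Retnla UMIs and 2 UMIs each in those with 5. H2-Ab1 was at 7867, 8879, 10364, 12187 and 13195 CPM over the bins, higher in each bin than in the one before.

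Ccl8 differed between bins of Retnla within the lectin-negative cells. It was at 879 and 768 CPM in cells with 0 and 1 to 4 Retnla UMIs, and at 937, 1464 and 275 CPM (203 to 364) in those with 5 to 9, 10 to 19 and 20 or more. The 65 cells richest in Retnla thus had the lowest Ccl8. However, 1 cell with more than 9 Retnla UMIs held 42 of the 176 Ccl8 UMIs, so the value of its bin rested partly on it. Mgl2 was at 103, 112, 1846, 247 and 510 CPM, where 1 cell with 5 Retnla UMIs held 57 Mgl2 UMIs and so set the value of the bin from 5 to 9.

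**Figure D4:**
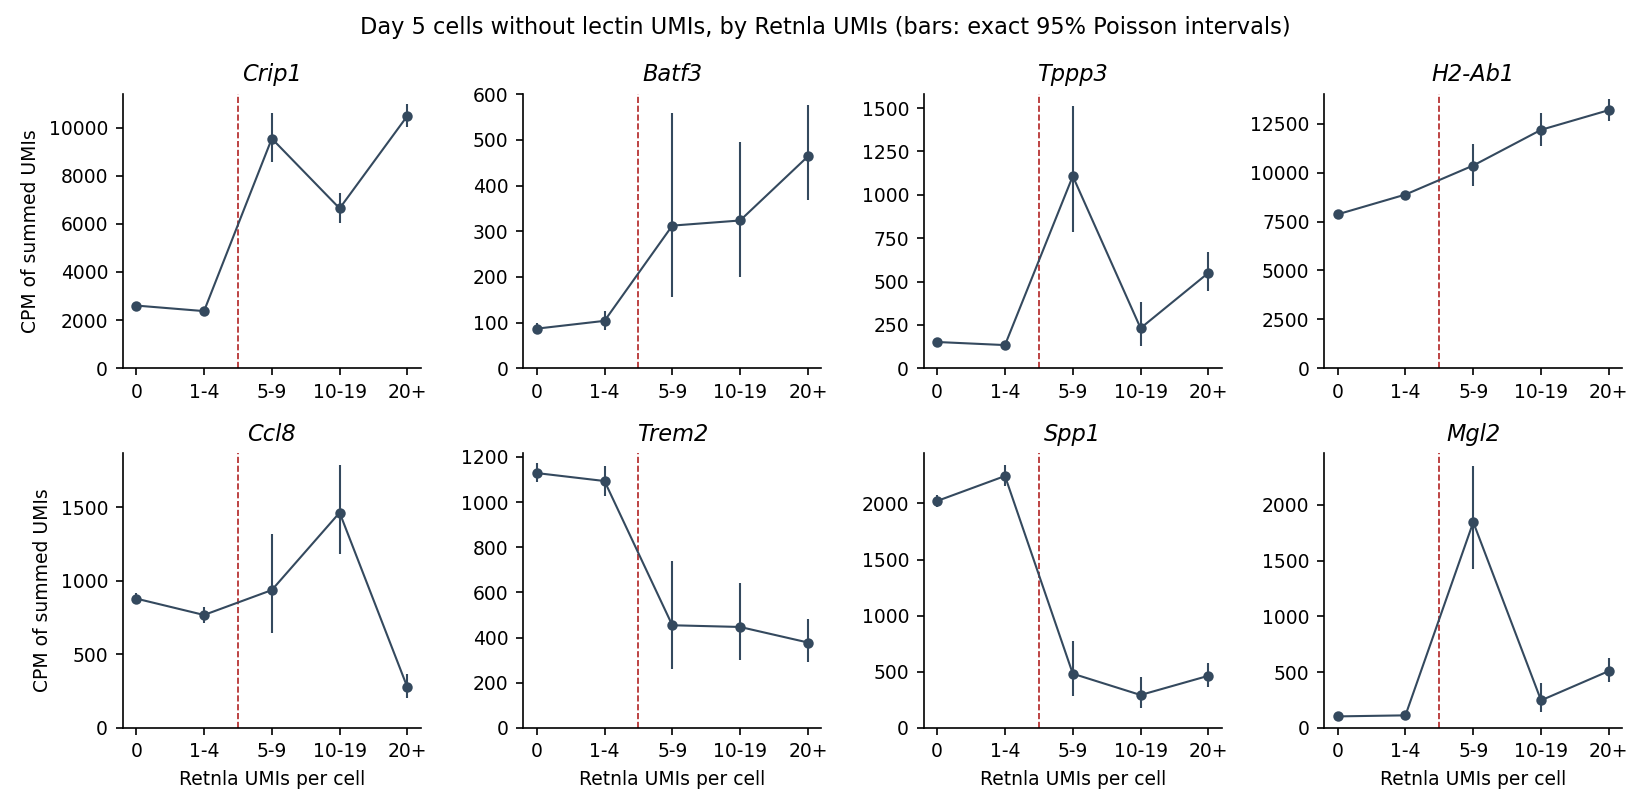
Level of 8 genes (y axes, CPM of summed UMIs, linear from 0) by bins of Retnla UMIs per cell. The bins (x axes) are 0, 1 to 4, 5 to 9, 10 to 19, and 20 or more. Shown are day 5 cells that passed the other conditions of the rule, on the lectins, Fcna, Cx3cr1 and Gpnmb. Bars are exact 95% Poisson intervals, and the red dashed line marks the threshold of the rule. Crip1 was at 2373 CPM in the bin from 1 to 4, which is mostly cells with 1 Retnla UMI, and at 6641 CPM or more in the bins right of the line, while Ccl8 was lowest in the last bin, at 275 CPM.

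Compared with the steady-state Retnla-high cells, which carried a similar amount of Retnla, the lectin-negative cells of day 5 had far less RNA of other sheath macrophage genes and more of Fn1, Plac8 and Spp1. Retnla was at 18879.9 CPM, against 22825 CPM in steady state (-0.27), given as a description because it chose both sets. Of 1543 genes that reached 100 CPM, 161 (10.4%) were higher by 2-fold or more and 224 (14.5%) lower, with a median log2 ratio of 0.09. Scaling by the median of gene ratios moved every log2 ratio down by 0.13 and gave 122 higher and 264 lower. The 2 sets come from different libraries, and the steady-state set was held to no condition on the lectins, Cx3cr1 or Gpnmb. The time point, the library and these conditions of the rule therefore cannot be told apart here.

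Of 22 epineurial and perivascular genes outside the rule, 18 were at least 2-fold lower and none higher, with a median log2 ratio of -2.30. Folr2, a folate receptor gene, was at 459 CPM, against 3524 CPM in steady-state Retnla-high cells (-2.94, -3.21 to -2.68). Lyve1, a hyaluronan receptor gene, was at 18.2 against 479.9 CPM (-4.72) and was found in 4 of 113 cells, against 77 of 209. Timd4, a phosphatidylserine receptor gene, had no UMI in the 113 cells and was at 231 CPM in steady state, so that its log2 ratio was at most -4.40, with a floor of 3 counts over the set. Cd163, the hemoglobin scavenger receptor gene, was at 25.5 against 379.8 CPM (-3.90), and Gas6, a bridging ligand for dying cells, at 87.4 against 633 CPM (-2.86). Ccl24, Mgl2 and Clec10a, which were all above their level in Retnla-zero cells, were below steady state, at 258 against 1501 CPM (-2.54), 619 against 1662 CPM (-1.43) and 207 against 821 CPM (-1.98). Mgl2 and Clec10a are close paralogs, and reads may be split between them.

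Crip1 and Tppp3 were not 2-fold apart from steady-state Retnla-high cells, at 9456 against 7083 CPM (0.42) and 546 against 579.9 CPM (-0.09, -0.38 to 0.20). Crip1 was seen in 96.6% and 98.3% of thinned cells of these sets, and Tppp3 in 28.1% and 27.8% (99.1%, 99.5%, 43.4% and 40.2% before thinning). Batf3 was higher, at 411 against 155 CPM (1.41), as were S100a4 (1.51) and S100a6 (1.27). H2-Ab1 was at 12594 against 7137 CPM (0.82), and none of the 6 class II genes was 2-fold apart (median 0.79). Against the 23 steady-state cells of the whole rule, given further on, Crip1 and Tppp3 were 2-fold higher and H2-Ab1 was lower. Lipid and lysosome genes had 4 of 20 higher, Fabp5, Ctss, Lpl and Lgals3, and 3 lower, Cd36, Cd63 and Cd68 (median 0.30).

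Of the monocyte and granule genes, 5 of 8 were higher and none lower (median 1.24). Plac8 was at 826 CPM, against 36.8 CPM in steady-state Retnla-high cells (4.49, 3.80 to 5.27), and was seen in 29.2% of thinned lectin-negative cells (20.1% to 39.8%), against 2.84% (0.929% to 6.50%), with 36.3% and 3.83% before thinning. Ccr2 was at 317 against 137 CPM (1.21, 0.73 to 1.69). It was not higher than in the 23 steady-state cells of the whole rule (-0.37, with overlapping intervals of the 2 levels). Fn1 was at 928 against 10.2 CPM (6.51, 5.26 to 8.14), in 61 of 113 cells against 2 of 209. Thbs1, thrombospondin, had 50 UMIs in the lectin-negative cells and none in steady state, which put it at least 4.89 higher on the log2 scale with the floor of 3 counts. Spp1 (5.70), Fabp5 (4.53) and Lpl (4.44) were also higher, although Spp1 and Fabp5 were lower than in the day 5 Retnla-zero cells. The urokinase receptor gene Plaur (4.77), the lipid droplet gene Hilpda (4.20) and the cytokine gene Osm (4.04) were among the 12 genes furthest above steady state. Il1b was at 593 against 194 CPM (1.61).

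Immediate early and heat shock genes were lower in 11 of 18 cases and higher in none (median -1.27), among them Klf2 at 1001 against 3749 CPM (-1.91), Hspa1a (-2.05) and Fos (-1.43). Of the CC chemokines, 5 of 10 were lower, with Ccl2 at 1008 against 3261 CPM (-1.69) and Ccl7 at 1511 against 4033 CPM (-1.42), and Ccl8 was higher, a call lost without each set's richest cell (0.96). Complement genes had 5 of 10 lower and 1 higher, with C1qa at 4229.5 against 9719.6 CPM (-1.20). Alternative activation genes were lower in 8 of 9 cases (median -1.43). The gap in Ccl17, 0 UMIs against 234, rested on 1 steady-state cell with 232 of them. Iron handling genes were lower in 4 of 9 cases, with the transferrin gene Trf at 386 against 1828 CPM (-2.24), and glycolysis genes higher in 3 of 9 (Tpi1, Mif and Pgam1). Mmp9 (-5.71), Hpgd, which degrades prostaglandins (-4.14), and the cytokine gene Tslp (-3.92) were among the 12 furthest below. The calls of Tpi1, Hmox1, C1qa, Ccl17, Ccl7, Mgl2, Ctss, Cd68 and Ccr2, among others, were each lost under at least 1 other setting. Mmp9 had only 2 UMIs in the 23 steady-state cells of the whole rule, too few to place it against them.

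The 23 steady-state cells that met the whole rule, 56049 UMIs in all, gave a comparison in which the lectin condition held on both sides. Fn1, Plac8, Spp1 and Thbs1 had no UMI in them. With the floor of 3 counts, the day 5 lectin-negative cells were at least 4.12 higher in Fn1 and 3.95 higher in Plac8 on the log2 scale. Folr2 was at 459 CPM in the day 5 cells, against 1070.5 CPM (817 to 1378) in the 23 steady-state cells, and Lyve1 at 18.2 against 196 CPM (98.0 to 351, 3 of 23 cells). Mgl2 was at 619 against 1963 CPM, Crip1 at 9456 against 4139 CPM and Ccl24 at 258 against 339 CPM, where the intervals of Ccl24 overlapped (202 to 326 and 204 to 529). Clec10a, C1qa and Il1b were no longer 2-fold apart, but 1 of the 23 cells held 20 of their 32 Il1b UMIs. C4b changed sign. Tslp and C4b each had only 2 UMIs in the 23 cells, too few to place Tslp or to rely on the sign of C4b.

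Several results over all 209 steady-state Retnla-high cells did not hold over these 23. Ccr2 was at 317 CPM (254 to 391) in the day 5 cells, against 410 CPM (260.1 to 616) in the 23 cells (-0.37). Its ratio changed sign, but the 2 intervals overlapped, so Ccr2 was neither clearly higher nor clearly lower here. The ratios of the class II genes H2-Ab1, at 12594 against 14559 CPM (-0.21), H2-Aa (-0.18), H2-Eb1 (-0.42) and Cd74 (-0.97) changed sign too. Crip1 (1.19) and Tppp3 became 2-fold apart, Tppp3 at 546 against 178 CPM (1.61), with 10 UMIs in 3 of the 23 cells.

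The lectin-positive Retnla-high cells of the same library gave a comparison within day 5, added after the data had been seen. They were held to no limit on Cx3cr1 or Gpnmb. The 2 sets therefore differ by those limits as well as by the lectin condition, and these cannot be told apart here. Of 1486 genes, 106 (7.13%) lay 2-fold or more above the lectin-positive cells and 119 (8.01%) below them, with a median log2 ratio of 0.04. Of 20 epineurial and perivascular genes, 13 were lower and none higher (median -1.53). Folr2 was at 459 CPM, against 1780 CPM in lectin-positive cells (-1.96), Lyve1 at 18.2 against 170.2 CPM (-3.22), Cd163 at 25.5 against 177 CPM (-2.79), Gas6 at 87.4 against 432 CPM (-2.31) and Ccl24 at 258 against 1041 CPM (-2.01). Lyve1 and Cd163 had 5 and 7 UMIs in the lectin-negative cells.

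Fn1 was higher in the lectin-negative cells, at 928 against 203 CPM (2.19, 1.65 to 2.78), as were Batf3 at 411 against 137 CPM (1.58), Plac8 at 826 against 379.6 CPM (1.12) and Ccr2 at 317 against 157 CPM (1.01, 0.35 to 1.73). The calls of Plac8 and Ccr2 were lost when the lectin-positive cells were weighted to the depth of the lectin-negative ones and with a threshold of 3 Retnla UMIs. Inflammatory cytokine genes were higher in 5 of 8 cases (median 1.16), with Il1b at 593 against 223 CPM (1.41), Cxcl2 at 2406 against 1145 CPM (1.07) and Osm at 167 against 58.9 CPM (1.51). The calls of Il1b and Cxcl2 were lost with a threshold of 3 Retnla UMIs (0.82 and 0.99), and that of Osm without cells carrying other cell types' markers (0.91). Crip1 (0.51), Mgl2 (-0.16, -0.52 to 0.20), S100a4 (0.65) and Tppp3 (0.63) were not 2-fold apart. Lipid and lysosome genes had 1 of 20 higher, Lpl, and 1 lower, Trem2 (median -0.33). Both calls were lost without cells carrying other cell types' markers. Spp1 was at 426 against 884 CPM (-1.05), with a ratio of 0.59 at a threshold of 3 Retnla UMIs, where 1 added cell held 275 Spp1 UMIs, and -0.24 without each set's richest cell. The 3 comparisons share the lectin-negative cells, so their ratios are not independent of one another.

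The genes of day 5 cells that went most closely with Retnla were few and weakly linked. Over 1777 day 5 cells thinned to 1000 UMIs, Crip1 had the highest Spearman correlation of 1946 genes, at 0.26. It was followed by S100a6 (0.19), Ccl24 (0.18), Fcna (0.17), S100a10 (0.16), Mgl2 (0.15), Ifitm3 (0.15), Folr2 (0.14), S100a4 (0.12) and Clec10a (0.12). The cells share 1 library, and lectin-positive cells are among them. In counts as sparse as these, values of this size are a description only.

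The lectin-negative Retnla-high cells did not form a cluster of their own. When the day 5 cells were clustered without the genes of the rule, they fell into 9 of 10 clusters. Cluster 6, led by Pik3r6, Kif3b and Klhdc4 and with a low median of 1308 UMIs, held 34 of them (30.1%, 21.8% to 39.4%). Cluster 5, led by Cd209f, Fcna and Lyve1, held 24 (21.2%) and also 52 of the 68 lectin-positive cells. Cluster 8, led by Ccl17, Ccl5 and Cd209a, held 11 of them among 57 cells, and cluster 9, led by the cell division genes Birc5, Ube2c and Top2a, held 6 of 55. Cluster 1, led by Hmox1, Slc40a1 and Gpnmb, held 2 of 314 cells, and cluster 3 held none of 208. Of the 15 nearest neighbours of a lectin-negative Retnla-high cell, 13.8% on average were of the same set, against 3.49% for other day 5 cells.

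**Figure D5:**
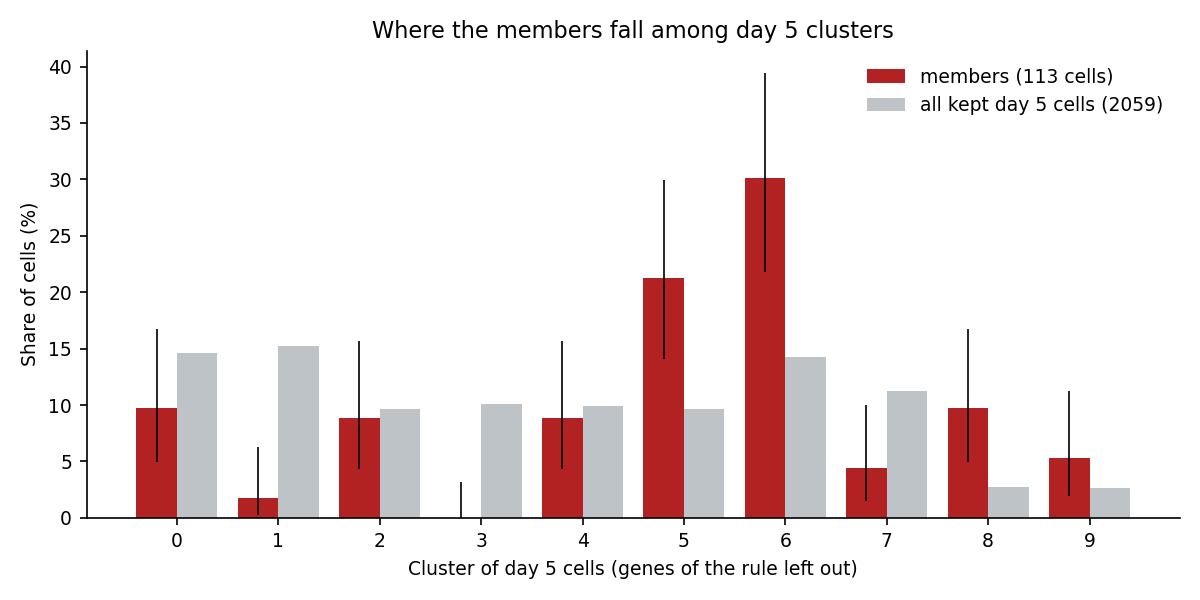
Share (y axis, %) of the 113 lectin-negative Retnla-high cells (red, with exact 95% Clopper-Pearson intervals) and of all 2059 kept day 5 cells (grey) in each of 10 clusters (x axis) found without the genes of the rule. The red bars are spread over 9 clusters, with 30.1% in cluster 6 and 21.2% in cluster 5.

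The promoters of Retnla, Mgl2 and Crip1 are shown because Retnla defines the cells and because Mgl2 and Crip1 were high beside it. Each is given from 250 bases before to 50 bases after the start, on its coding strand, from RefSeq on GRCm38.p6. Capitals mark the STAT6-type motif, TTC and GAA with 4 bases of any kind between them, searched on both strands.
Retnla, chr16:48842359-48842658, plus strand: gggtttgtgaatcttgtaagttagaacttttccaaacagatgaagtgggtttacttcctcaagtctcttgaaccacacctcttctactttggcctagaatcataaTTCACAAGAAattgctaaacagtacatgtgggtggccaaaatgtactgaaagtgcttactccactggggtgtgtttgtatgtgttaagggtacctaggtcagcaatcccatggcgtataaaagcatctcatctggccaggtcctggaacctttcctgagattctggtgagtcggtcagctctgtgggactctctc
Mgl2, chr11:70130107-70130406, plus strand: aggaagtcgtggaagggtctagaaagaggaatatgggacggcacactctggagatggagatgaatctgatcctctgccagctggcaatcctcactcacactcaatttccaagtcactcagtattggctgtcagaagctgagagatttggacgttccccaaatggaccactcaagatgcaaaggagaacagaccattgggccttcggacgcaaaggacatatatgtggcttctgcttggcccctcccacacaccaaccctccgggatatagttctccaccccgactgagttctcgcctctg
Crip1, chr12:113151762-113152061, plus strand: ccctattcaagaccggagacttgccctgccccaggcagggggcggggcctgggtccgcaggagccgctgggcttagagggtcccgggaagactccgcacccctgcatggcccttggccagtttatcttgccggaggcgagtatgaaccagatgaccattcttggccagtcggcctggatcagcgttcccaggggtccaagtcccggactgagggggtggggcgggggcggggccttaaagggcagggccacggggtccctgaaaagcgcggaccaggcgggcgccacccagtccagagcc

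The Retnla promoter held 1 such motif, at -145 from the start, and 1 GAGGAAG, the type that PU.1 binds, at -197. Neither motif was found in the windows of Mgl2 or Crip1. Of 14 genes looked up (Retnla, Ccl8 and the 12 genes furthest above the Retnla-zero cells), 11 matched an entry, and Retnla alone held the STAT6-type motif. Of 32851 promoters of the same length, 6.95% held it. The related TTCNNNGAA, the spacing of other STAT factors, occurred in 8.30% of promoters and among these genes in Batf3, at -239. GAGGAAG occurred in 13.6% of promoters and in at least 1 entry of 7 of the 11 genes, Ccl8 and Batf3 included. Unc119 and Tmpo had more than 1 entry, with GAGGAAG in only some of them. The share of promoters and the count of genes are thus in unlike units and are not compared. These are matches of letters in a window and say nothing of whether a factor was bound.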

How the data were processed

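The authors deposited 1 table per library with whole-number UMI counts per gene and cell barcode, not normalized, made with Cell Ranger 2.0.2 on mm10, per the submitters' processing notes. The sources used here give no further steps. A pooled table of the 3 libraries was not used. The steady-state table had 731 barcodes and 1658022 UMIs, that of day 1 had 2796 and 7975791, and that of day 5 had 2059 and 5524496, with barcode numbers equal to the cell numbers on the labels. Filters on genes (200) and mitochondrial share (10%) left 728, 2793 and 2059 cells. The members, gene lists and comparisons were chosen with earlier results of these data known.

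Raw UMIs were summed per set of cells and scaled to CPM. Intervals are exact Poisson for CPM, exact conditional binomial for ratios and Clopper-Pearson for shares (scipy 1.17.1). A gene was called when 2-fold or more apart, provided it reached 100 CPM in 1 set or both; a count of 0 was replaced by 3 counts over the set. Named genes were the 12 largest ratios in each direction and up to 4 members of each of 16 lists with at least 50 CPM, leaving out predicted, hemoglobin, immunoglobulin, mitochondrial and ribosomal protein genes. S100a4, S100a6, S100a10, Plac8, Ccr2, Fn1, Cd74, Apoe, Ctsl, Lgmn and further genes outside this rule were named after their values had been seen, and some genes are not reported here. The comparison with lectin-positive cells was also added then. Clusters (scanpy 1.11.5, Leiden resolution 1, 2000 variable genes, 30 components, 15 neighbours) left out the 8 genes of the rule. The code was tested on simulated counts. Alternatives covered scaling, weighting, the Retnla threshold, depth, doublets, other cell types' markers and the expression minimum.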

Additional observations from a re-analysis of the deposited data

How the results depend on the processing

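With 1 library per time point, no alternative here measures replicate error, and no library could be left out. No paired analysis was possible because each group had 1 sample and no result came from a test. The number of lectin-negative Retnla-high cells ran from 91 (at least 10 Retnla UMIs) to 137 (at least 3). Against Retnla-zero cells, the calls were 57 higher and 61 lower; they became 151 and 154 with a minimum of 50 CPM and 1145 and 1035 with none. A Retnla threshold of 3 gave 37 lower. Leaving out each gene's richest cell in each set (added after seeing the data) gave 26 higher and 87 lower. This takes 1 cell from 113 but 1 from 1384 and keeps the totals, so it lowers the lectin-negative side more. Against steady-state Retnla-high cells, 161 and 224 became 352 and 444 at 50 CPM, 1102 and 1438 with no minimum, and 368 and 439 against the 23 steady-state cells that met the whole rule. Against lectin-positive cells, 106 and 119 became 313 and 392 at 50 CPM and 962 and 850 with no minimum; lower genes numbered 182 with equal weight per cell and 62 without the richest cells. Of the genes and lists checked that were past 2-fold, the following changed sign. Without cells carrying other cell types' markers, Cxcl10 had a log2 ratio of -1.04 and Mcm3 one of -0.27 over Retnla-zero cells, and over steady state Cxcl10 had -0.66 and the cell cycle list a median of -0.15. Over the 23 steady-state cells, Ciita had -1.29, C4b 0.79, Cxcl10 -0.54 and Ccr2 -0.37; below 2-fold, H2-Ab1, H2-Aa, H2-Eb1 and Cd74 turned as well. Over lectin-positive cells, Gtf2h1 had 0.15 without the richest cells and Spp1 0.59 at a threshold of 3. For these changes the cause was not tested. Of the genes that the fixed rule named and that were past 2-fold, 41 to 50 of 50 stayed past it over Retnla-zero cells, 42 to 68 of 68 over steady state and 45 to 58 of 58 over lectin-positive cells. The 42 came from the comparison with the 23 steady-state cells, where only 61 of the 68 genes had enough UMIs for a ratio. The 113 cells had a median of 2017 UMIs. A gene with no UMI in them could still be present at up to 13.4 CPM, the upper limit of the exact Poisson interval. The floor of 3 counts over the set was 10.9 CPM.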
